A study of Mus musculus with 9 samples.

Results

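Mesangial cells, pericytes and smooth muscle cells are the contractile, matrix-embedded cells that stand beside the capillaries and arterioles of the kidney, and their marker genes were followed here in podocyte sorts from diabetic and normal mice. The gene set was a list of 32 symbols, 21 for mesangial cells and pericytes and 11 for smooth muscle, listed by cell type, with earlier results of these data known. A gene was measured where the array annotation gave a probe set that symbol alone, and the brightest such probe set stood for the gene, which left 28 measured genes, 17 mesangial or pericyte and 11 smooth muscle, of 18193 genes in the whole table. Gucy1a3 and Gucy1b3 carry the newer symbols Gucy1a1 and Gucy1b1 in that annotation, so they fell outside the rule and are given apart. Expression of Serpine2 and Akr1b7 was not analysed here.

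The diabetic group held 5 OVE26 mice, labelled OVE-GFP, on the FVB background, and the normal group held 4 FVB mice labelled wild type, all aged 3 to 4 months. OVE26 mice become diabetic early in life because a calmodulin transgene damages their insulin-producing cells. Glomeruli were freed with magnetic beads and collagenase, broken up with trypsin, and the green fluorescent podocytes were sorted. Neither the promoter behind the fluorescent protein nor a fluorescent transgene in the wild type group is named by the labels. Each sort gave 1 array, and all values below are log2 intensities, with differences given as OVE26 minus FVB on the same scale.

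In the glomerulus, mesangial cells hold the capillary loops together. Platelet-derived growth factor B from endothelium acts on the receptor Pdgfrb to recruit them, and alpha8 integrin anchors them to matrix. Nitric oxide raises cyclic GMP in these cells and in arteriolar smooth muscle and so relaxes them. In smooth muscle the serum response factor and its partner myocardin switch on actin, myosin and their regulators. Mature podocytes are not the classical source of most of these transcripts, although podocytes do use some of the same contractile proteins in their foot processes.

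The sorts had the transcripts of podocytes in every array. Podxl, the sialomucin of the podocyte surface, was at 13.10 ± 0.02 (SD, n = 4) in FVB and 12.99 ± 0.04 (SD, n = 5) in OVE26 arrays, and Nphs1, which encodes nephrin, at 11.90 ± 0.23 (SD, n = 4) and 11.40 ± 0.29 (SD, n = 5). Neither passed the test (limma, adjusted p = 0.574 and 0.205). None of the 7 podocyte markers measured was dim, a word used here for a group mean below 3.31, the 25th percentile of array values averaged over arrays. The table holds no detection calls, so this level stands in for background, and 38 olfactory receptor genes, which kidney cells are not known for, had a median of 2.03 and a 95th percentile of 4.37.

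No gene of the set differed between the groups past the threshold. By limma 0 of the 28 had an adjusted p under 0.05 in either direction, beside 0.605% of all genes tested (0.473% higher and 0.132% lower in the diabetic group). At an unadjusted p under 0.05 there were 3 genes higher in the diabetic group (Rgs5, Tagln and Mustn1; 9.03% of all genes) and 3 lower (Ptn, Sfrp2 and Mylk; 6.07% of all genes), which is 21.4% of the 28 beside 15.1% of all genes. The groups did not overlap in 2 of the 28, Igfbp7 and Mylk, beside 6.26% of all genes. The difference was above 0 in 12 of the 28, beside 52.6% of all genes. The smallest adjusted p in the set was 0.223. The median difference was -0.18 over the 17 mesangial and pericyte genes and 0.05 over the 11 smooth muscle genes, beside 0.01 over all genes tested. Centred on ribosomal protein genes these medians were -0.32 and -0.094. The smooth muscle median was also below 0 with the filter on dim genes (-0.0079), without FVB 1 (-0.0052) and without OVE26 5 (-0.047). The replicate block gave the same -0.047, because OVE26 5 has no FVB array of its number and so adds nothing to that difference. Over 7 podocyte markers the median was -0.23, with 6 of 7 below 0 and 0 passing. Over 10 glomerular endothelial markers it was -0.26, with 7 below 0, 3 above 0 and 0 passing. In 18 of the 28 the difference was smaller than 1 pooled SD of the arrays, as it was for 68.1% of all genes. In bulk sorts, fewer cells of a type and less RNA per cell cannot be told apart. The labels number separate mice, so the spread behind each test is that between mice and their sorts.

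**Figure D1:**
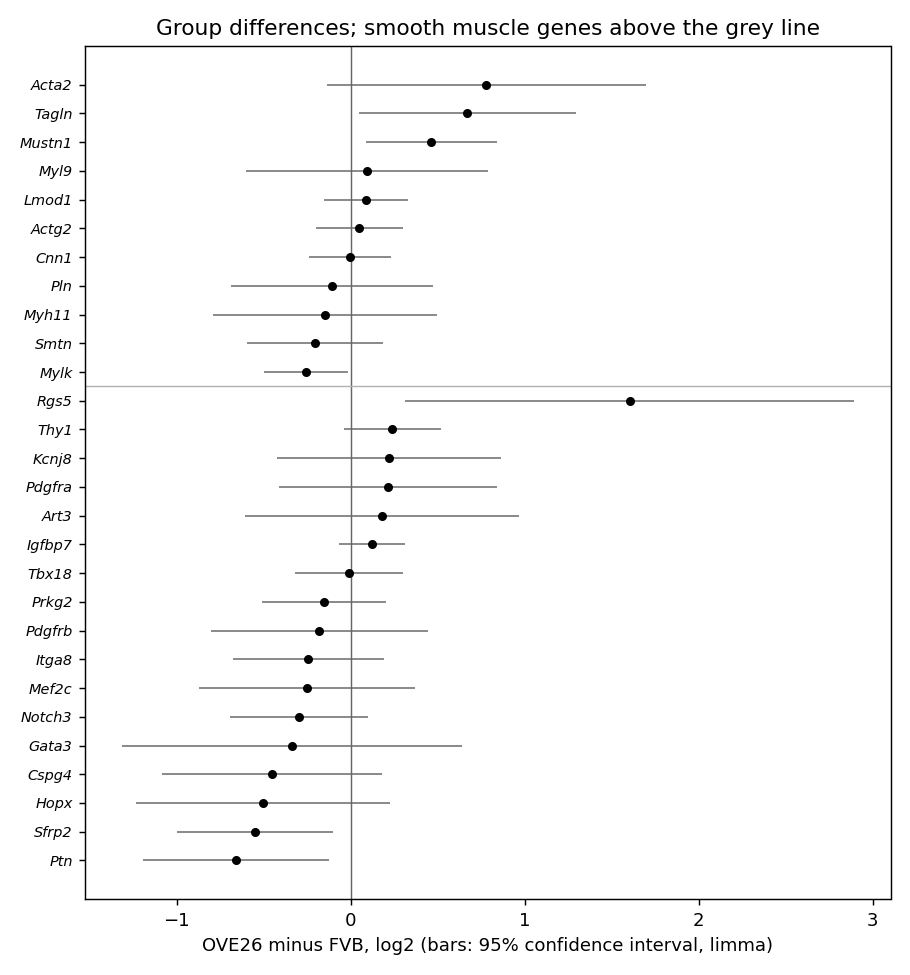
Difference between OVE26 and FVB arrays in log2 intensity for each of the 28 measured genes (points) with its 95% confidence interval from limma, not adjusted for the number of genes (bars). Rgs5 lies farthest to the right at 1.60 and Ptn farthest to the left at -0.66.

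The array levels themselves showed which genes of the set had signal in the podocyte sorts. Of the 28, 21 had a mean at or above the 40th percentile of all genes (5.03). Tbx18, a transcription factor of perivascular cells, Prkg2, a cyclic GMP-dependent kinase, and Actg2, the enteric smooth muscle actin, were dim in both groups, and no fold is given for them. Tbx18 ran from 1.09 to 1.73 over the 9 arrays and Actg2 from 1.96 to 2.35. Cnn1, Lmod1, Thy1 and Kcnj8 lay above the dim level but below the 40th percentile. Levels of different genes cannot be set against each other on this array, because each probe set has its own response.

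**Figure D2:**
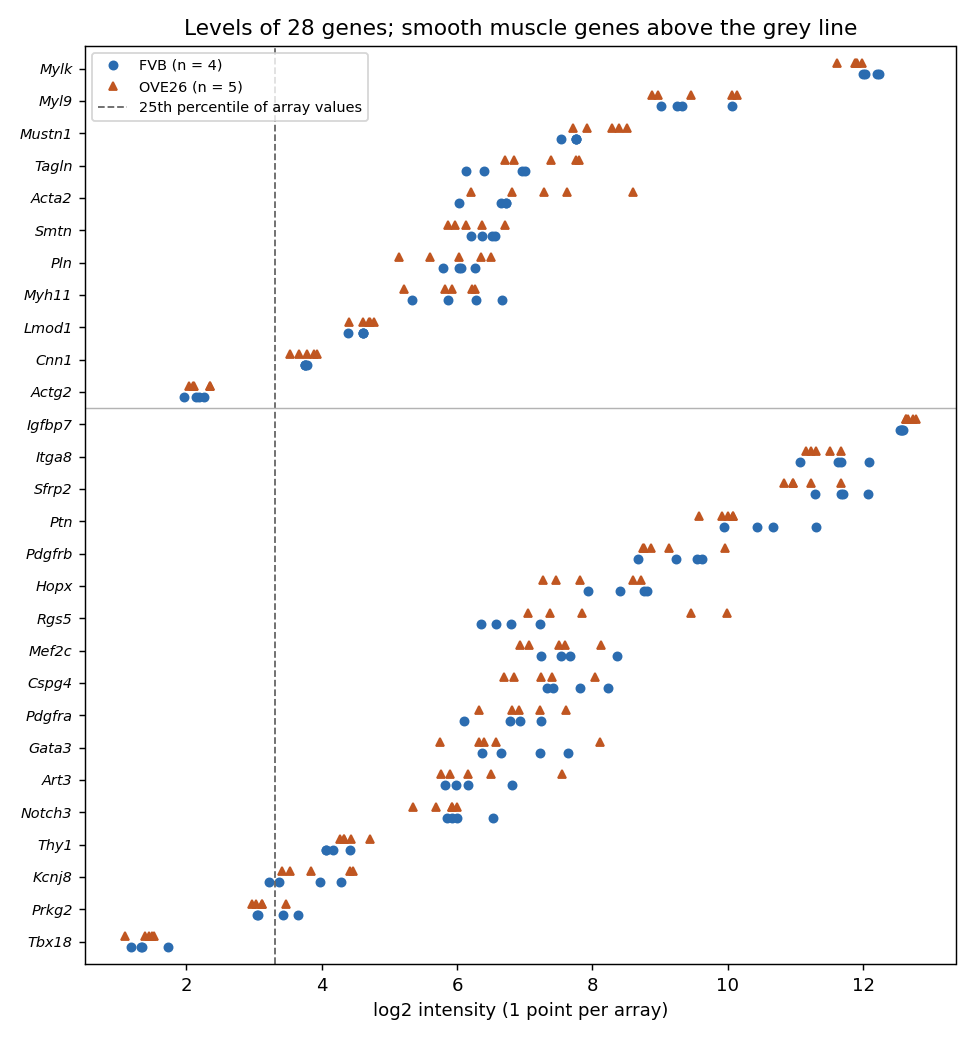
Log2 intensity of the 28 genes, 1 point per array, with FVB as circles and OVE26 as triangles and the dashed line at 3.31, the dim level. In most genes the 2 groups of points overlap, and Tbx18 and Actg2 lie left of the line in every array.

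Receptors and adhesion molecules of mesangial cells had clear signal and overlapped between the groups. Pdgfrb, the receptor that recruits mesangial cells and pericytes, was at 9.24, 9.61, 8.67 and 9.55 in FVB arrays 1 to 4 and at 8.76, 8.87, 9.95, 9.13 and 8.74 in OVE26 arrays 1 to 5. The highest array of all was OVE26 3 and the lowest FVB 3, so the spread inside each group was wider than the difference of -0.18 ± 0.28 (SE; limma, adjusted p = 0.834). The interval of that difference ran from -0.80 to 0.44, and leaving out 1 array moved it between -0.064 (without FVB 2) and -0.40 (without OVE26 3). Itga8, the alpha8 integrin chain, was at 11.68, 12.09, 11.07 and 11.63 in FVB and at 11.16, 11.23, 11.67, 11.51 and 11.30 in OVE26 arrays. Here too FVB 3 was lowest, while FVB 2 was highest, and the difference was -0.24 ± 0.20 (SE; limma, adjusted p = 0.625), or -0.086 without FVB 2 and -0.42 without FVB 3. Cspg4, the NG2 proteoglycan of pericytes, differed by -0.45 (adjusted p = 0.503), Pdgfra, the receptor of interstitial fibroblasts and some mesangial cells, by 0.22 (adjusted p = 0.791) and Notch3, the pericyte Notch receptor, by -0.30 (adjusted p = 0.483). Their other probe sets kept the direction but not the size, at -0.11 for Cspg4, 0.32 and 0.60 for Pdgfra and -0.57 for Notch3. Thy1, a surface glycoprotein long used to mark rat mesangial cells, was at 4.16, 4.06, 4.42 and 4.07 in FVB and at 4.27, 4.71, 4.44, 4.33 and 4.33 in OVE26 arrays. It lay under the 95th percentile of the olfactory receptor genes in 3 of 4 FVB arrays and 3 of 5 OVE26 arrays, and differed by 0.24 (limma, adjusted p = 0.414), or by 0.09 centred on ribosomal protein genes and 0.13 with 16 added to the intensity.

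The secreted factors Ptn and Sfrp2 were lower on average in OVE26 arrays without passing the test. Ptn encodes pleiotrophin, a heparin-binding growth factor. Its level was 10.67, 11.31, 9.94 and 10.44 in FVB and 10.0025, 9.92, 10.08, 9.58 and 10.08 in OVE26 arrays. All but FVB 3 of the normal arrays lay above every diabetic array, and the difference was -0.66 ± 0.24 (SE; limma, adjusted p = 0.230). Sfrp2, a secreted Wnt-binding protein, was at 11.70, 12.07, 11.29 and 11.67 in FVB and at 10.84, 10.97, 11.67, 10.96 and 11.23 in OVE26 arrays. OVE26 3 reached the level of the middle FVB arrays, the other diabetic arrays lay below all FVB arrays, and the difference was -0.55 ± 0.20 (SE; limma, adjusted p = 0.230). Without FVB 2 the differences shrank to -0.42 for both Ptn (adjusted p = 0.346) and Sfrp2 (adjusted p = 0.388), the first by more than 1.5 times. Averaging the 3 probe sets of Ptn gave -0.41 (adjusted p = 0.378).

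Igfbp7, a matrix-bound insulin-like growth factor binding protein, was at 12.55, 12.55, 12.57 and 12.59 in FVB and at 12.66, 12.63, 12.78, 12.74 and 12.64 in OVE26 arrays. All 5 diabetic arrays lay above all 4 normal ones, beside 3.64% of all genes with no overlap in that direction, and the difference was 0.12 ± 0.09 (SE; limma, adjusted p = 0.550). Its other probe sets differed by up to 0.33 in the same direction, but the groups overlapped on each of them. The sign turned to -0.022 when arrays were centred on ribosomal protein genes, a scaling that moved the median of all genes by -0.15.

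Rgs5 had the largest difference of the set. It encodes a regulator of G-protein signalling used as a pericyte marker, which limits the response to vasoconstrictors. Its level was 7.23, 6.35, 6.58 and 6.80 in FVB and 7.37, 7.05, 9.46, 9.99 and 7.85 in OVE26 arrays. OVE26 3 and OVE26 4 stood far above the rest, OVE26 2 lay below FVB 1, and the groups overlapped. The mean was 8.34 ± 1.30 (SD, n = 5) against 6.74 ± 0.38 (SD, n = 4), a difference of 1.60 ± 0.58 (SE; limma, adjusted p = 0.223). All 4 probe sets of Rgs5 gave differences in this direction, from 1.55 to 2.21, and each was highest in OVE26 4, with OVE26 3 next. Without OVE26 4 the difference was 1.19 (adjusted p = 0.283) and without OVE26 3 it was 1.32 (adjusted p = 0.354). Rgs4, its relative on the list of other pericyte genes, was likewise highest in OVE26 4 (7.66) and OVE26 3 (7.44) and differed by 0.97 (limma, adjusted p = 0.199).

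Marker lists of several cell types also differed over the arrays in which Rgs5 varied. The mean centred log2 intensity of 7 parietal epithelial genes in OVE26 arrays 1 to 5 was 0.20, 0.49, 0.55, 1.08 and 0.51, so it was highest in OVE26 4, where Rgs5 was highest. That of 7 podocyte genes was 0.24, -0.016, -0.24, -0.44 and -0.070, lowest in OVE26 4. That low mean rested largely on Tcf21, which was at 8.06 in OVE26 4 against 10.05 to 11.02 in the other OVE26 arrays. Synpo (12.73) and Ptpro (11.12) were also lowest of the OVE26 arrays in OVE26 4, whereas Wt1 was highest there (10.78). Nphs1 (11.06), Cdkn1c (12.23) and Wt1 (10.20) were lowest of the OVE26 arrays in OVE26 3, and Podxl (12.95) in OVE26 5. For 9 macrophage genes the mean centred log2 intensity was 0.26, -0.30, 0.83, 0.38 and 0.33, highest in OVE26 3, and 0 of the 9 passed the test. Their summed linear intensity ran from 468 to 1355 in OVE26 and from 372 to 796 in FVB arrays. Of those 9 genes, Itgam was dim in both groups and C1qb was dim in FVB arrays. The summed parietal intensity ran from 910.0 to 2120.1 in OVE26 and from 364 to 716 in FVB arrays, and that of podocyte genes from 26857 to 34049 and from 30705 to 35104. The part of these cells in the Rgs5 values was not tested.

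Transcription factors and enzymes of mesangial cells overlapped between the groups. Gata3, a zinc finger factor that marks mesangial cells in the glomerulus, was at 6.65, 7.63, 6.37 and 7.22 in FVB and at 6.40, 6.33, 8.11, 5.74 and 6.58 in OVE26 arrays. OVE26 3 was highest and OVE26 4 lowest, so that the diabetic group held both ends of the range, and the difference was -0.34 ± 0.44 (SE; limma, adjusted p = 0.791). Hopx, an atypical homeodomain protein, was at 8.40, 8.76, 7.93 and 8.80 in FVB and at 7.27, 7.81, 8.60, 8.71 and 7.46 in OVE26 arrays. In the diabetic group OVE26 3 and 4 lay among the FVB arrays and the other 3 lay below them, with a difference of -0.50 ± 0.33 (SE; limma, adjusted p = 0.523), or -0.33 without OVE26 1. Mef2c, a MADS-box factor of muscle, differed by -0.25 (adjusted p = 0.746), although 2 of its 5 probe sets ran the other way, up to 0.25. Art3, an ADP-ribosyltransferase family member, differed by 0.18 (adjusted p = 0.874).

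Nitric oxide signalling genes were read through the subunits of soluble guanylate cyclase under their newer symbols. Gucy1a1, the alpha subunit, was at 8.69, 9.83, 8.42 and 9.12 in FVB and at 8.07, 8.21, 9.38, 8.60 and 8.42 in OVE26 arrays. Gucy1b1, the beta subunit with which it pairs, was at 7.40, 8.41, 6.83 and 7.61 in FVB and at 6.62, 7.37, 8.29, 7.10 and 7.81 in OVE26 arrays. Both were highest in OVE26 3 and FVB 2 of their groups and lowest in OVE26 1 and FVB 3, and they differed by -0.48 (limma, adjusted p = 0.541) and -0.12 (limma, adjusted p = 0.926). Kcnj8, the pore of the potassium channel that opens when ATP falls, differed by 0.22 (adjusted p = 0.793) at a low level of 3.22 to 4.46.

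Contractile genes of smooth muscle also overlapped, except Mylk. Acta2, the alpha-actin of smooth muscle and activated mesangial cells, was at 6.72, 6.03, 6.65 and 6.72 in FVB and at 6.81, 7.63, 7.29, 6.20 and 8.60 in OVE26 arrays. OVE26 5 stood far above the rest, FVB 2 was lowest and OVE26 4 next, and the difference was 0.78 ± 0.41 (SE; limma, adjusted p = 0.417). Without OVE26 5 it was 0.45 (adjusted p = 0.557), and it was 0.27 as a mean of its probe sets (adjusted p = 0.441). Its other probe sets, of which there were 2, were dim and differed by -0.01 and 0.03.

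Tagln, which encodes the actin-binding protein transgelin, was at 6.40, 6.13, 7.01 and 6.96 in FVB and at 6.83, 6.70, 7.39, 7.76 and 7.80 in OVE26 arrays. OVE26 3, 4 and 5 lay above all FVB arrays and the other diabetic arrays lay inside the FVB range, with a difference of 0.67 ± 0.28 (SE; limma, adjusted p = 0.297). Mustn1, a small nuclear protein of the musculoskeletal system, was at 7.76, 7.75, 7.75 and 7.53 in FVB and at 8.29, 8.39, 7.91, 7.71 and 8.50 in OVE26 arrays. Here all but OVE26 4 lay above the FVB arrays, and the difference was 0.46 ± 0.17 (SE; limma, adjusted p = 0.229). Its lowest adjusted p over the alternatives was 0.0960, with array weights.

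The other contractile genes had differences on both sides of 0. Myh11, the smooth muscle myosin heavy chain, differed by -0.15 ± 0.29 (SE; limma, adjusted p = 0.874), with FVB 1 highest at 6.67 and OVE26 2 lowest at 5.22. Cnn1, the actin-binding calponin, was between 3.53 and 3.94 in every array and differed by -0.00 ± 0.11 (SE; limma, adjusted p = 0.993). Lmod1, the actin nucleator leiomodin, stayed between 4.39 and 4.78 (difference 0.09, adjusted p = 0.776). Smtn, the cytoskeletal smoothelin, differed by -0.21 (adjusted p = 0.647) and Pln, phospholamban, which restrains the calcium pump of the sarcoplasmic reticulum, by -0.11 (adjusted p = 0.904).

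The myosin regulators were bright. Mylk, the kinase that phosphorylates the myosin light chain, was at 12.23, 12.03, 12.20 and 12.00 in FVB and at 11.89, 11.98, 11.88, 11.62 and 11.91 in OVE26 arrays. All diabetic arrays lay below all normal ones, beside 2.62% of all genes with no overlap in that direction, and the difference was -0.26 ± 0.11 (SE; limma, adjusted p = 0.297). The other 2 probe sets of Mylk gave -0.35, with the groups overlapping, and -0.56, without overlap. Centring on ribosomal protein genes gave -0.40 for the probe set used. Myl9, the light chain that Mylk phosphorylates, was at 9.02, 10.06, 9.25 and 9.32 in FVB and at 8.88, 9.46, 10.14, 8.96 and 10.07 in OVE26 arrays. OVE26 3, OVE26 5 and FVB 2 were high and the groups overlapped fully, with a difference of 0.09 ± 0.31 (SE; limma, adjusted p = 0.936) whose sign turned under several alternatives, centring on ribosomal protein genes among them.

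**Figure D3:**
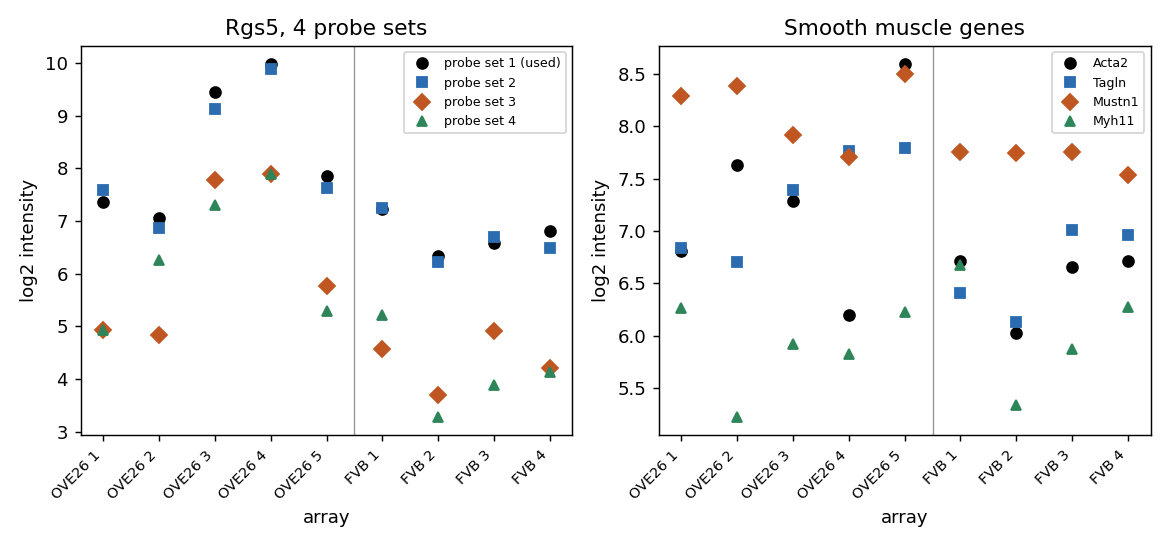
Log2 intensity by array of the 4 probe sets of Rgs5 (left) and of 4 smooth muscle genes (right), with OVE26 arrays left and FVB arrays right of the grey line. Rgs5 is highest in OVE26 4 and OVE26 3 on every probe set, whereas Acta2 is highest in OVE26 5 at 8.60 and Myh11 in FVB 1 at 6.67.

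Promoter sequence was searched across the listed genes, because serum response factor binds a short element, the CArG box, found at many contractile genes. Its strict form was searched in RefSeq promoters of build GRCm38.p6, from 250 bases before to 50 bases after each annotated start, and since the form is its own reverse complement 1 search covers both strands. Promoters were searched for 24 of the 32 listed genes, 8 of them smooth muscle genes and 16 mesangial or pericyte genes, Serpine2 and Akr1b7 included. Those of Tagln, Myh11 and Actg2 among the contractile genes were not searched. Nor were those of Pdgfrb, Prkg2, Thy1, Gucy1a3 and Gucy1b3 among the mesangial and pericyte genes, so the counts say nothing about these genes. The element was in 2 of these 24 genes (8.33%), Myl9 and Hopx, and in 1.81% of all 27025 genes with a promoter, or by promoter in 2 of 29 (6.9%) and in 1.63% of all. It was in 1 of the 8 smooth muscle genes (12.5%). The windows of 60 bases around it are shown 5′ to 3′ on the gene's strand, with the CArG box in capitals, Myl9 from chr2:156775278-156775337 (plus strand) and Hopx from chr5:77115172-77115231 (minus strand).
Myl9: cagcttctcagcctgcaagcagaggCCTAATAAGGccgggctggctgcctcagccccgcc
Hopx: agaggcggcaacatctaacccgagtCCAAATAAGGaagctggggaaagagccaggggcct
The box begins 161 bases before the annotated start used for Myl9 and 83 bases before 1 of the 2 starts of Hopx, the other of which has no box in its window. As given above, the level of Myl9 overlapped between the groups, and so did that of Hopx. A match is a description of sequence, and the other promoters lack only these letters in this window.

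Variation from array to array within each group was shared by many of the mesangial genes. OVE26 3 was the highest of the OVE26 arrays and FVB 2 the highest of the FVB arrays in 8 of 17 mesangial and pericyte genes (Art3, Cspg4, Gata3, Itga8, Mef2c, Pdgfra, Pdgfrb and Sfrp2), against 5.37% of all genes tested. These arrays were singled out after the values had been seen, so the counts are a description. FVB 3 was the lowest FVB array in 9 of the 17 (21.1% of all genes) and OVE26 1 the lowest OVE26 array in 8 (18.5% of all genes). The smooth muscle genes had another order, with OVE26 3 and FVB 2 both highest in 1 of 11 (Myl9) and OVE26 5 the highest OVE26 array in 6 of 11, against 15.3% of all genes. Rgs5 did not have the common mesangial order, being lowest of the FVB arrays in FVB 2.

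**Figure D4:**
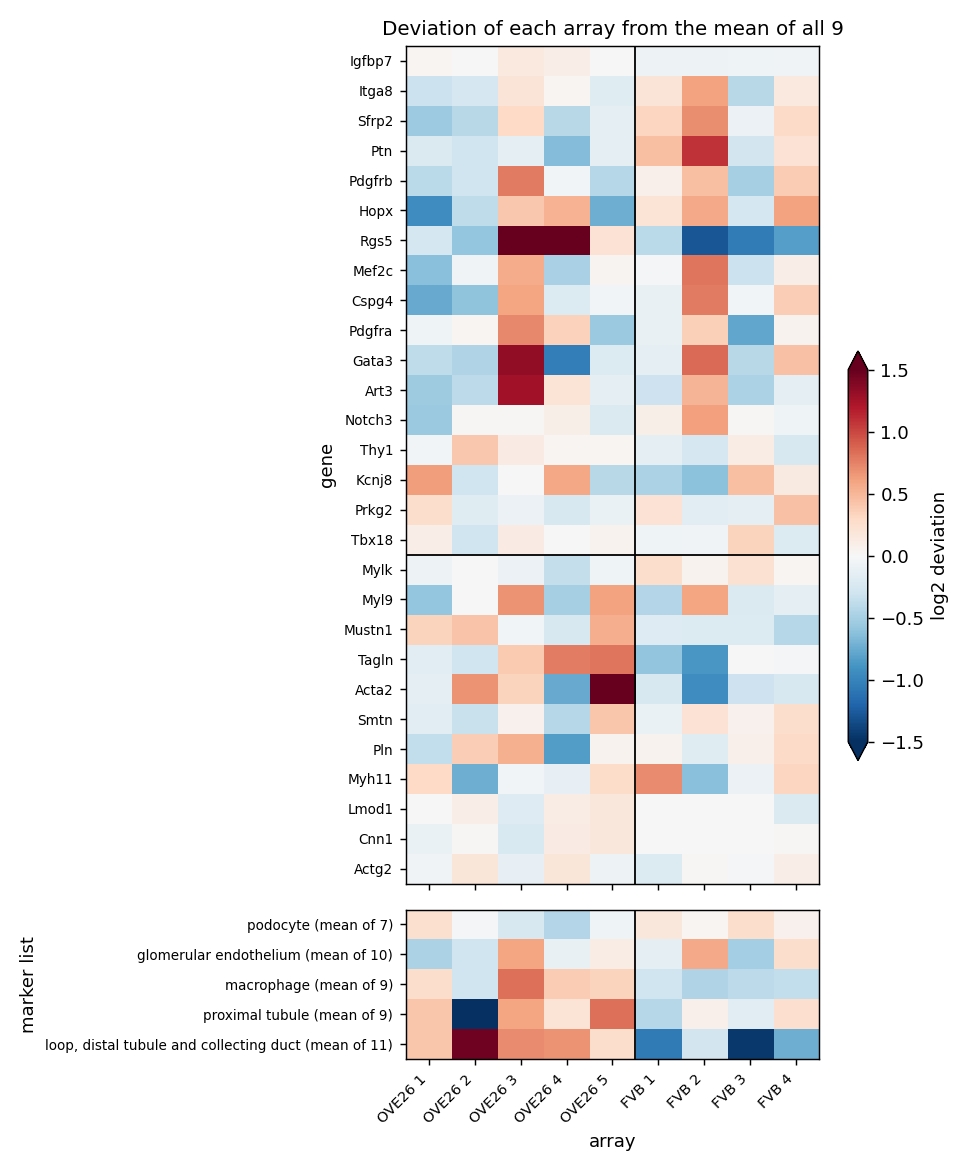
Deviation of each array from the mean of all 9 arrays, in log2 units, for the 28 genes (upper panel, mesangial and pericyte genes above the black line and smooth muscle genes below it) and for the means of 5 marker lists (lower panel). OVE26 3 and FVB 2 are red in most mesangial genes and in the glomerular endothelial list, where their means are 0.59 and 0.57. The colours end at 1.5 in both directions.

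Glomerular endothelial genes moved with the mesangial genes over the arrays. OVE26 3 and FVB 2 were the highest of their groups in 9 of 10 endothelial markers, all but Pecam1. The endothelial mean was 0.59 in OVE26 3 and 0.57 in FVB 2, against -0.47 in OVE26 1 and -0.51 in FVB 3, and the mesangial mean was 0.48, 0.29, -0.27 and -0.23 in the same arrays. Summed endothelial intensity on the linear scale ran from 3248 to 6827 in OVE26 and from 3847 to 7908 in FVB arrays, and none of the 10 markers was dim in either group. By limma 0 of the 10 passed. Plvap, with the smallest p of the 10, differed by 1.25 (limma, adjusted p = 0.151), against the negative median of the list. All OVE26 arrays lay above all FVB arrays in Plvap, beside 3.64% of all genes with no overlap in that direction. Kdr, the main receptor for vascular endothelial growth factor, was at 10.65 ± 0.51 (SD, n = 4) in FVB and 10.20 ± 0.45 (SD, n = 5) in OVE26 arrays, and Pecam1, an adhesion molecule of endothelial junctions, at 8.40 ± 0.51 (SD, n = 4) and 8.43 ± 0.18 (SD, n = 5), and neither passed (limma, adjusted p = 0.490 and 0.970). In podocyte genes OVE26 3 and FVB 2 were the highest of their groups in 0 of 7. Both were highest in 3 of 9 macrophage, 1 of 7 parietal, 1 of 6 fibroblast and 0 of 9 proximal tubule genes. In distal nephron markers FVB 2 was the highest FVB array in 7 of 11 and FVB 3 the lowest in 6 of 11. OVE26 3 was the highest OVE26 array in 0 of these 11. Parts of this order were thus found outside the endothelial and mesangial lists. The part of endothelial RNA in the mesangial values was not tested. With OVE26 3 and FVB 2 left out together, a choice made after the values had been seen, the median mesangial difference was -0.18 and again no gene of the set passed.

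Among 11 distal nephron markers, from the thick limb to the collecting duct, 3 rose (Fxyd4, Atp6v0d2 and Slc26a4) and the median difference was 1.64. Among 7 parietal epithelial markers the keratins Krt8, Krt18 and Krt19 rose, with a median of 1.30. By limma 0 of 9 proximal tubule, 0 of 6 fibroblast and 0 of 2 red blood cell markers passed, with medians of 0.14, 0.41 and -0.17. In the distal list Slc12a1, the salt transporter of the thick limb, differed by 0.56 (limma, adjusted p = 0.564) and Aqp2, the water channel of principal cells, by 0.60 (limma, adjusted p = 0.138). The mean centred log2 intensity of the distal list was 0.27 to 1.46 in OVE26 and -1.45 to -0.27 in FVB arrays, without overlap. The summed linear intensity of that list overlapped, at 4799 to 9064 in OVE26 and 1856 to 6914 in FVB arrays, and none of its markers was dim. The part of these cells in the values of the set was not tested. OVE26 2 was lowest in proximal tubule genes, with Lrp2, the endocytic receptor megalin, at 6.24 there against 7.34 to 9.20 in the other OVE26 arrays. Leaving out OVE26 2 gave a mesangial median of -0.12 and a smooth muscle median of 0.02, with 0 genes of the set called.

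Ligands and partners of the same pathways were counted from lists drawn up by role. In the platelet-derived growth factor list, 0 of 5 genes passed. Pdgfa, a ligand of Pdgfra, differed by 0.91 (limma, adjusted p = 0.122) and lay above all FVB arrays in 4 of 5 OVE26 arrays. Pdgfb, the ligand of Pdgfrb, differed by -0.51 (adjusted p = 0.242) and Nrp1, a co-receptor, by -0.51 (adjusted p = 0.219). Of 8 genes for the beta1 chain that pairs with alpha8 integrin, its matrix ligands and other integrin alpha chains, 0 passed as well. Among these Fn1, fibronectin, differed by 1.00 (limma, adjusted p = 0.108), with all OVE26 arrays (5.56 to 6.84) above all FVB arrays (4.73 to 5.28), Itga1, another alpha chain, by 0.66 (adjusted p = 0.330) and the matrix protein tenascin C, Tnc, by 0.91 (adjusted p = 0.411).

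In the nitric oxide and cyclic GMP list 0 of 11 passed. Nos1, the neuronal nitric oxide synthase, which the macula densa makes, differed by 1.34 (limma, adjusted p = 0.196), Pde1a, a phosphodiesterase that breaks down cyclic nucleotides, by 1.07 (adjusted p = 0.148) and Nos3, the endothelial synthase, by 0.51 (adjusted p = 0.319). Of 6 renin cell and juxtaglomerular genes 0 passed, and renin itself is not analysed here. Ptgs2, the inducible cyclooxygenase, had the smallest p of these lists, with a difference of 2.17 ± 0.47 (SE; limma, adjusted p = 0.0784) and values of 6.17, 5.85, 3.89 and 5.01 in FVB against 6.45, 7.03, 7.92, 7.79 and 7.83 in OVE26 arrays. All OVE26 arrays lay above all FVB arrays. Foxd1, a factor of stromal precursors that podocytes also express, differed by -0.51 (adjusted p = 0.176) and the connexin Gja5 by -0.64 (adjusted p = 0.509).

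Regulators and further parts of the contractile apparatus also held no gene past the threshold. Of 5 serum response factor and myocardin genes 0 passed, with Tead1 at -0.26 (limma, adjusted p = 0.263), Klf4, which opposes the contractile programme, at 0.62 (adjusted p = 0.341) and Elk1 at -0.34 (adjusted p = 0.549). Of 16 other contractile and cytoskeletal genes 0 passed. All OVE26 arrays lay below all FVB arrays in 3 of the 16, beside 2.62% of all genes. Synm, an intermediate filament protein, was lower in every OVE26 array (7.08 to 7.66) than in any FVB array (7.72 to 8.08), by -0.53 (limma, adjusted p = 0.114). So was Ppp1r12a, the targeting subunit of myosin phosphatase, by -0.33 (adjusted p = 0.154), while Ppp1r14a, an inhibitor of that phosphatase, differed by 0.46 (adjusted p = 0.316).

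Channel genes and matrix genes completed the survey. Of 6 ion handling genes 0 passed, with Abcc9, the sulfonylurea receptor that pairs with Kcnj8, at a difference of 1.03 (limma, adjusted p = 0.122), Atp2a2, the calcium pump of the sarcoplasmic reticulum, at 0.16 (adjusted p = 0.519) and Kcnmb1, dim in OVE26 arrays, at -0.22 (adjusted p = 0.656). Of 22 other pericyte and mesangial genes 0 passed, with a median difference of 0.20. Thbs1, thrombospondin, a matrix protein that activates transforming growth factor beta, was at 6.20, 6.93, 5.03 and 5.50 in FVB and at 6.68, 6.94, 8.40, 8.18 and 7.64 in OVE26 arrays and differed by 1.65 ± 0.45 (SE; limma, adjusted p = 0.121). OVE26 3 and 4 were highest and FVB 2 lay level with OVE26 2. Col1a1, the fibrillar collagen chain, differed by 0.69 (limma, adjusted p = 0.120), and like Col3a1, Dcn, Lum and Postn it also stands in the fibroblast list.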

How the data were processed

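Probe set intensities of 9 arrays of amplified podocyte RNA were taken from the deposited value table, made by the authors with RMA and Partek per the submitters' processing notes (no version or setting is named there). Their range is that of linear intensities, so they were converted to log2. Of 45101 probe sets 64 controls were left out, 34945 had 1 symbol, 932 several and 9160 none in the platform annotation. The brightest single-symbol probe set over all arrays stood for each gene. Group was the only term in limma 3.58.1 (R 4.3.3; lmFit, eBayes, 2-sided), with p-values adjusted by Benjamini-Hochberg over all 18193 genes, called under 0.05. The fit was tested on simulated data. Array medians ran from 5.07 to 5.15, at most 4.08% of values were identical between arrays, and the number of arrays limits the precision.

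The genes and lists were chosen with earlier results of these data known. Values per array are given for genes past the threshold, the 8 with the smallest p and the 8 brightest of the 28, and for each related list up to 3 genes with the smallest p; Gata3, the cyclase subunits and the arrays compared by rank were singled out after their values were seen. Nphs1, Podxl, Pecam1, Kdr, Lrp2, Slc12a1 and Aqp2 were always named. Marker lists covered podocyte, endothelial, macrophage, proximal, distal, parietal, fibroblast and red blood cell genes. Alternatives were other filters, probe set rules, scalings, variance models, a block, a sex covariate and left-out arrays.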

Additional observations from a re-analysis of the deposited data

Results flagged for a closer look

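In 6 of 56 groups of arrays (28 genes in 2 groups) 1 array passed Dixon's criterion, which sets its gap against the range of its group. Chance gives about 1 in 20 for independent normal values. The genes share arrays and some values are tied, as in Lmod1, so 6 of 56 cannot be set against that rate. Acta2 was at 6.03 in FVB 2, with the other FVB arrays at 6.65 to 6.72. Mustn1 was at 7.53 in FVB 4, with the others at 7.75 to 7.76, and Mylk at 11.62 in OVE26 4, with the others at 11.88 to 11.98. Lmod1 was at 4.39 in FVB 4, with the others all at 4.61, Cnn1 at 3.78 in FVB 4, with the others at 3.75 to 3.76, and Tbx18 at 1.09 in OVE26 2, with the others at 1.39 to 1.51; these 3 genes lie low on the intensity scale.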

How the results depend on the processing

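No gene of the set passed under any of the 24 alternatives (limma, or a linear model without moderation). Of 285 recomputed differences of the 13 genes with the smallest p or the highest level, 278 kept their direction and 7 reversed. Differences of Gata3, Gucy1a1 and Gucy1b1, also given by array above, were not among these. Centred on ribosomal protein genes, Igfbp7 reversed to -0.022, Myl9 to -0.053 and the medians moved to -0.20 (all 28), -0.32 (mesangial) and -0.094 (smooth muscle). Myl9 also reversed to -0.24 with the sex score. With 1 array left out it ran from -0.067 (without OVE26 3) to 0.31, reversing also without OVE26 5 (-0.050) and FVB 1 (-0.039). The replicate block repeats the value without OVE26 5 (-0.050), so the 7 reversals count this one under both settings. Thy1 could not be tested after the filter on dim genes.

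Counts of all genes called moved, from 86 higher and 24 lower, as follows. Lower genes numbered 38 with the filter, 51 with trend and robust variance and 43 with 16 added to the intensity. Higher and lower genes were 56 and 52 centred on ribosomal genes, 0 and 0 without moderation, 284 and 112 with array weights, 19 and 0 with the replicate block, and 33 and 8 with the sex score. They were 168 and 39 without OVE26 3 and FVB 2 (added after the data were seen), 267 and 108 at a threshold of 0.1, and 14 and 1 at 0.01. Leaving out 1 array gave 8 to 285 higher and 0 to 82 lower. The cause was not tested. Deviations of arrays of the same number had r from -0.21 to 0.13 across genes. Paired mice need not deviate together, so this cannot decide whether the numbers pair the mice. The medians ran over left-out arrays from -0.13 to 0.00 (all), -0.35 to -0.06 (mesangial) and -0.05 to 0.07 (smooth muscle). Dim genes such as Tbx18 and Actg2 give no usable difference.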
